A study of Mus musculus with 186 samples.

Results

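The promoters of 6 mouse housekeeping genes, Psmd4, Polr2g, Gpi1, Pigm, Kdelr1 and Tpp1, were followed through 3 pools of a reporter assay in which each promoter drives its own barcoded transcript. They were picked by name and make up 6 of the 10 sequences of the housekeeping pool (HKGlib1), 6 of the 83 sequences listed for a pool of E. coli fragments with high CpG density (CpGdensitylib1) and 6 of the 44 listed for a pool of Snx3 promoter mutants (Snx3lib1). The tables of all pools of the study hold 572 rows. The assay, TrAC-seq, inserts 1 construct per cell into the same site of the beta-globin locus of mouse embryonic stem cells (ESCs) by recombinase-mediated cassette exchange, and reads the RNA made from each barcode over its genomic DNA. All 3 pools were assayed in wild-type cells (WT) with 3 replicates each. The Snx3 pool was also assayed in 3 replicates of TKO cells, which were made from the same line by CRISPR and lack Dnmt1, Dnmt3a and Dnmt3b, the enzymes that methylate CpGs in DNA. No value used here measures the 3 deleted genes, so the knockout itself was not checked.

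The housekeeping promoters entered the other pools in different ways. For the WT assays of the E. coli and Snx3 pools, cells that already carried the housekeeping library were mixed into the culture, whereas for the TKO assay the DNA of the housekeeping library was mixed in before insertion. WT values in the 3 pools therefore come from the same kind of integrated cells measured again, and the TKO values come from a separate insertion. The cell line and this insertion cannot be told apart. Whether the replicates of a pool were separate cultures is not stated, so every p-value here reflects the variation among these samples alone, part or all of which may be technical.

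Housekeeping genes are transcribed in nearly all cell types, and many of their promoters lie in CpG islands, lack a TATA box and start transcription over a broad region. Psmd4 encodes a ubiquitin receptor in the regulatory particle of the 26S proteasome, and Polr2g encodes a subunit of RNA polymerase II. Gpi1 encodes glucose-6-phosphate isomerase of glycolysis, and Pigm encodes a mannosyltransferase that builds the glycosylphosphatidylinositol anchor in the endoplasmic reticulum. Kdelr1 encodes a receptor that returns resident proteins of the endoplasmic reticulum from the Golgi, and Tpp1 encodes a tripeptidyl peptidase of the lysosome. On mm9 (NCBIM37, GENCODE M1 annotation) these genes lie at chr3:94836616-94846536 on the minus strand (Psmd4), chr19:8867619-8873047 on the minus strand (Polr2g), chr7:34987141-35015308 on the minus strand (Gpi1), chr1:174306662-174314230 on the plus strand (Pigm), chr7:53128142-53139101 on the plus strand (Kdelr1) and chr7:112893334-112900738 on the minus strand (Tpp1).

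The inserts differed in CpG content. From the deposited number of CpGs and CpGs per 100 bases, the inserts were between 499 bases (Polr2g) and 615 bases (Pigm) long. Gpi1 had an observed over expected CpG ratio (OE) of 0.792 with 31 CpGs, and Pigm an OE of 0.749 with 33 CpGs. Both lie above the OE of 0.6 that is used to define CpG islands. Polr2g had an OE of 0.557, Psmd4 of 0.474 and Kdelr1 of 0.387, with 15, 15 and 14 CpGs. Tpp1 was the poorest, with 4 CpGs and an OE of 0.125. The G+C content spanned a narrower range, from 46.5% (Tpp1) to 53.7% (Pigm).

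The sequences below are the 250 bases before the annotated start of 4 of these genes, from RefSeq on GRCm38.p6, with every CpG in capitals. They are shown because they make visible how the CpG-poor Tpp1 promoter differs from Gpi1 at the other end of the range. No window within 3000 bases of the annotated start of any of the 6 genes has the insert's length, C and G counts and number of CpGs at once, so the ends of the tested inserts were not placed, and the printed stretches are not the inserts themselves. Psmd4 lies at chr3:95042615-95042864 on the minus strand with 9 CpGs (OE 0.558), Gpi1 at chr7:34230337-34230586 on the minus strand with 14 CpGs (OE 0.743), Kdelr1 at chr7:45872590-45872839 on the plus strand with 8 CpGs (OE 0.431) and Tpp1 at chr7:105752236-105752485 on the minus strand with 2 CpGs (OE 0.122).
Gpi1: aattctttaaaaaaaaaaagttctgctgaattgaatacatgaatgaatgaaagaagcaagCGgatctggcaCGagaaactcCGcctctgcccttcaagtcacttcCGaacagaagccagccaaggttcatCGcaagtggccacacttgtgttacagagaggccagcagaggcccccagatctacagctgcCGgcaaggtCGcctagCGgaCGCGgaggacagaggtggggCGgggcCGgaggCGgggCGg
Psmd4: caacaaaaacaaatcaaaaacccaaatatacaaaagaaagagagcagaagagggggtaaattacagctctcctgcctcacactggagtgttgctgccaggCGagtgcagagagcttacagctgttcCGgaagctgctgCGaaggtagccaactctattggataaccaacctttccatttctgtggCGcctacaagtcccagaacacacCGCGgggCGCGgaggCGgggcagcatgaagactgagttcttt
Kdelr1: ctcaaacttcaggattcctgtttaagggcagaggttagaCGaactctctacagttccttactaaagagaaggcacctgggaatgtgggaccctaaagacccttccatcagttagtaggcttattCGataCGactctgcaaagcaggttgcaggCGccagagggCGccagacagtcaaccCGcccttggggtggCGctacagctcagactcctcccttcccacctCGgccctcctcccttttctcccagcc
Tpp1: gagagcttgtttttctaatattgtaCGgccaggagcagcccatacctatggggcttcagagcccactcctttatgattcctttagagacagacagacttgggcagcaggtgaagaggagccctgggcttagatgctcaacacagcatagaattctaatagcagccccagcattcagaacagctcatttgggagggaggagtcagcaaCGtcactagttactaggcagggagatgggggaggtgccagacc

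Within these 4 stretches the order of OE was Gpi1, Psmd4, Kdelr1 and Tpp1, the same order as in the inserts. The median OE of all 32851 annotated mouse promoters of that length was 0.374, and 33.95% of them reached 0.6. Both strands were searched for exact matches to 5 motifs. Variants of a motif were not counted and may be present in these stretches. Positions are given for the leftmost base, counting -1 as the base just before the start. GGGCGG, a core bound by SP1 and SP3, occurred in Gpi1 at -23 and -6 and in Kdelr1 at -72 on the opposite strand, and 32.7% of all promoters held it. CCAAT occurred in Psmd4 at -95 on the opposite strand, and 33.8% of all promoters held it. TATAAA (12.4% of all promoters), the GABPA motif CCGGAAGT (2.88%) and the NRF1 motif GCATGCGC (2.26%) had no exact match in the 4 stretches. No matches overlapped one another. Pigm and Polr2g were not matched in the table of promoters.

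The deposited activity is the barcode ratio of RNA to DNA plus 0.05, as a geometric mean over the barcodes of a promoter, so a promoter without RNA is listed at 0.05, or -4.32 on the log2 scale. Values within 0.5 of this lowest log2 value are called near the floor here. A replicate counted with at least 3 barcodes, and a promoter passed with 2 such replicates. All 6 promoters passed in the housekeeping pool, 5 in the E. coli pool, 5 in WT cells of the Snx3 pool and 4 in TKO cells. Gpi1 had at most 2 barcodes in every replicate outside the housekeeping pool and none in TKO cells, and Kdelr1 had 2 barcodes in each TKO replicate, so neither has a value there. Summed over all constructs, a replicate held 535 to 905 barcodes in the housekeeping pool, 159 to 509 in the E. coli pool, 477 to 633 in WT cells of the Snx3 pool and 524 to 648 in TKO cells. The tables hold no read totals, and precision rests on the number of barcodes and on how far replicates differ. In replicate 1 of the housekeeping pool the 4 weak promoters lay between 0.253 and 0.323, above the 0.0859 to 0.119 of replicate 2 and the 0.0502 to 0.0768 of replicate 3. The cause of this was not tested, and mean levels in this pool are given with and without that replicate.

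Psmd4 was the most active of the 6 promoters in the housekeeping pool. Its activity was 1.18, 1.41 and 0.665 in replicates 1, 2 and 3, from 25, 22 and 58 barcodes, or 0.05 ± 0.57 on the log2 scale (SD, n = 3). Pigm followed with 0.728, 1.02 and 0.554 from 36, 32 and 58 barcodes, or -0.42 ± 0.44 (SD, n = 3). Psmd4 was above Pigm in each of the 3 replicates, by 0.70, 0.46 and 0.26 on the log2 scale, although their ranges overlapped. Without replicate 1 their means were -0.046 and -0.41. Among all 10 sequences of the pool Psmd4 held rank 2 after Actb, and Pigm rank 4 after Snx3.

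The other 4 promoters were weak in this pool and close to one another in listed activity. In replicate 3, Gpi1, Tpp1 and Kdelr1 were near the floor. The added 0.05 makes up much of such low values, so this closeness is limited by the floor. Polr2g gave 0.311, 0.0942 and 0.0768 from 116, 109 and 200 barcodes, Gpi1 gave 0.282, 0.119 and 0.0502 from 4, 3 and 7 barcodes, Tpp1 gave 0.323, 0.0880 and 0.0590 from 12, 11 and 24 barcodes, and Kdelr1 gave 0.253, 0.0859 and 0.0686 from 16, 18 and 38 barcodes. Their mean log2 activities lay between -3.13 (Kdelr1) and -2.93 (Polr2g), with SDs of 1.01 to 1.28, and between -3.80 (Tpp1) and -3.56 (Polr2g) without replicate 1. They took ranks 6 to 9, between CMV and PGK. Pigm, the weaker of the active pair, exceeded Polr2g by 2.51 on the log2 scale (1.23, 3.44 and 2.85 in the 3 replicates), and their ranges did not overlap. Without replicate 1 this difference was 3.15. Each of the other 3 neighbouring pairs changed sign between replicates, while Polr2g was above Kdelr1, which is not its neighbour, by 0.30, 0.13 and 0.16. The plot of activity by pool shows the active pair apart from the other 4 promoters.

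**Figure D1:**
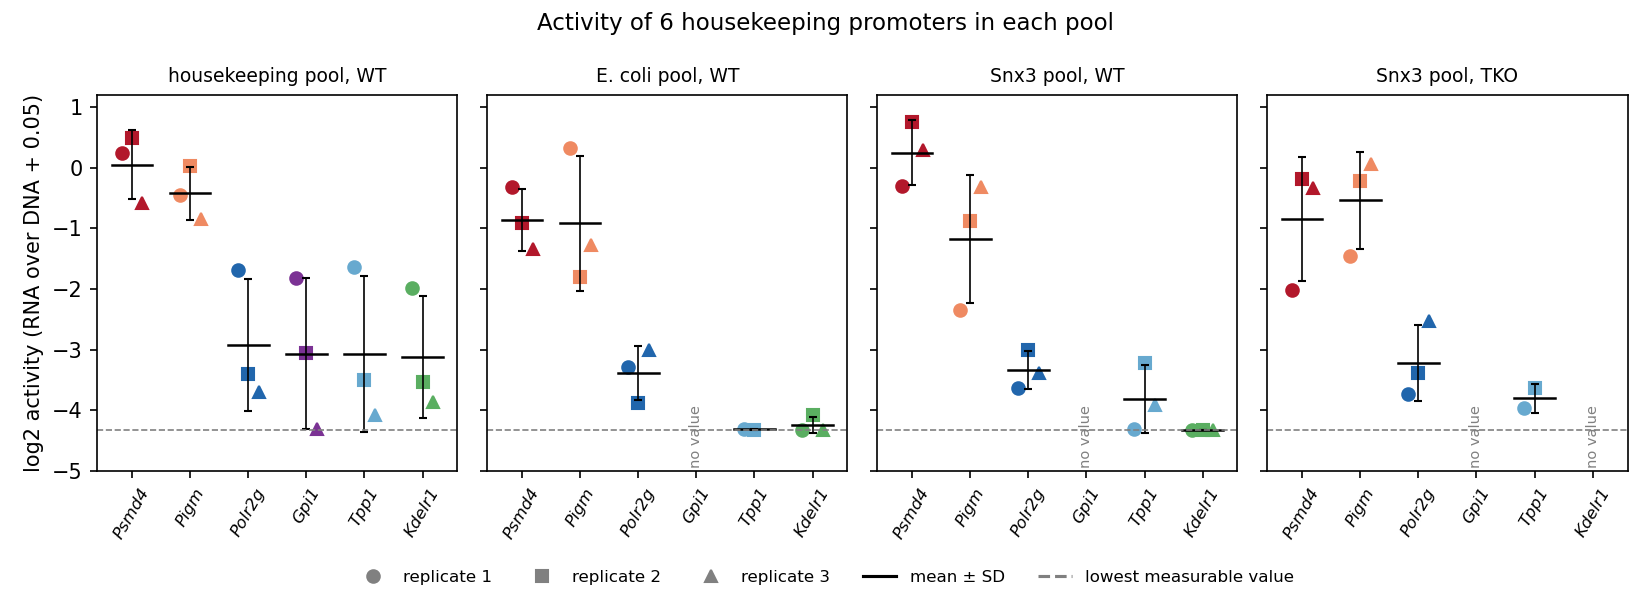
Log2 activity (y axis) of the 6 promoters in each pool and cell line (x axis, 1 panel each), with circles, squares and triangles for replicates 1, 2 and 3, a bar for the mean with its SD, and a dashed line at the lowest measurable value of -4.32. Psmd4 and Pigm lie above the other promoters of the same panel, and replicate 1 of the housekeeping pool holds the 4 weak promoters higher than the other replicates.

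In the E. coli pool the active pair was again Psmd4 and Pigm, but their order was not fixed. Psmd4 gave 0.802, 0.529 and 0.393 from 19, 20 and 11 barcodes (rank 2 of 17 that passed), and Pigm gave 1.25, 0.285 and 0.415 from 14, 25 and 11 barcodes (rank 3). Pigm was above Psmd4 in replicates 1 and 3 and below it in replicate 2, and the difference of the means was 0.06 on the log2 scale. Polr2g gave 0.103, 0.0677 and 0.124 (rank 6), below Pigm by 2.47 and with no overlap of ranges. Kdelr1 gave 0.05, 0.0589 and 0.05 (rank 9) and Tpp1 gave 0.0505 and 0.0501 with too few barcodes in replicate 3 (rank 12). Both were near the floor in every replicate measured, so the distance of 0.85 between Polr2g and Kdelr1 is limited by the floor.

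In WT cells of the Snx3 pool Psmd4 stood above Pigm in every replicate. Psmd4 gave 0.807, 1.69 and 1.23 from 21, 14 and 15 barcodes, or 0.25 ± 0.53 (SD, n = 3) on the log2 scale, rank 3 of 34 that passed. Pigm gave 0.196, 0.546 and 0.805 from 26, 14 and 16 barcodes, or -1.18 ± 1.05 (SD, n = 3), rank 8. The ranges just missed each other, with the lowest value of Psmd4 at 0.807 and the highest of Pigm at 0.805. Polr2g gave 0.0808, 0.124 and 0.0954 (rank 22), again clear of Pigm. Tpp1 gave 0.0502, 0.108 and 0.0664 from 8, 3 and 5 barcodes (rank 25), and Kdelr1 was listed at 0.05 in all 3 replicates from 9, 11 and 9 barcodes, the last of 34. Kdelr1 thus lay at the floor in each replicate of this pool.

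Over the 4 sets of replicates, 16 pairs of neighbours in the order of activity were compared, and 7 had ranges that did not overlap. The pairs were formed by sorting on these same values, and the share among the other constructs of the pools was not computed. Among the 7 were Polr2g over Kdelr1 in the E. coli pool and Tpp1 over Kdelr1 in WT cells of the Snx3 pool, where Kdelr1 was near or at the floor. No pair passed the two-sided exact permutation test, where 3 against 3 values cannot give a p below 0.1 and adjusted p (Benjamini-Hochberg over the 16 pairs) ranged from 0.229 to 1. Counted over the 9 WT replicates of the 3 pools, Psmd4 exceeded Pigm in 7, and both exceeded Polr2g in 9 and Kdelr1 in 9. The WT values of the 3 pools come from the same kind of integrated cells measured again, so the 9 are not independent replicates. Polr2g exceeded Kdelr1 in 9 of 9 replicates, by 0.13 to 1.31 on the log2 scale, and Tpp1 in 7 of the 8 where Tpp1 was measured. Tpp1 exceeded Kdelr1 in 6 of 8 replicates, among them the 3 WT replicates of the Snx3 pool, where their ranges did not overlap. In that pool Kdelr1 was at the floor, and Tpp1, with 3 to 8 barcodes, lay only 0.0049 above it in replicate 1 on the log2 scale. Their order is thus limited by the floor.

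Pools were scaled separately, so distances within a replicate were set side by side rather than levels. Polr2g minus Psmd4 was -2.98 ± 1.00 in the housekeeping pool, -2.53 ± 0.75 in the E. coli pool and -3.59 ± 0.24 in WT cells of the Snx3 pool (log2, SD, n = 3 each). Without replicate 1 it was -3.51 in the housekeeping pool. The added 0.05 makes up much of the low values of Polr2g, so such distances are smaller than those of the RNA to DNA ratio itself, by an amount that differs with the level, and are not given as folds. The replicates of the housekeeping pool overlapped those of both other pools, whereas those of the E. coli pool (-2.97 to -1.66) and of the Snx3 pool (-3.77 to -3.32) did not overlap each other. Polr2g was near the floor in replicate 2 of the E. coli pool. Kdelr1 minus Psmd4 did not overlap between these pools either (-4.00 to -2.98 against -5.08 to -4.01), with Kdelr1 near the floor throughout. Tpp1 minus Psmd4 did overlap. These distances share the values of Psmd4, and the share over all constructs was not computed. Pigm minus Psmd4 was -0.47 ± 0.22, -0.06 ± 0.77 and -1.43 ± 0.74 in the housekeeping, E. coli and WT Snx3 pools (SD, n = 3 each). Its values overlapped between the pools. Pigm minus Polr2g was 2.51 ± 1.15, 2.47 ± 0.99 and 2.16 ± 0.90 (SD, n = 3 each), with overlapping values. The plot of distances from Psmd4 shows these values for each replicate.

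**Figure D2:**
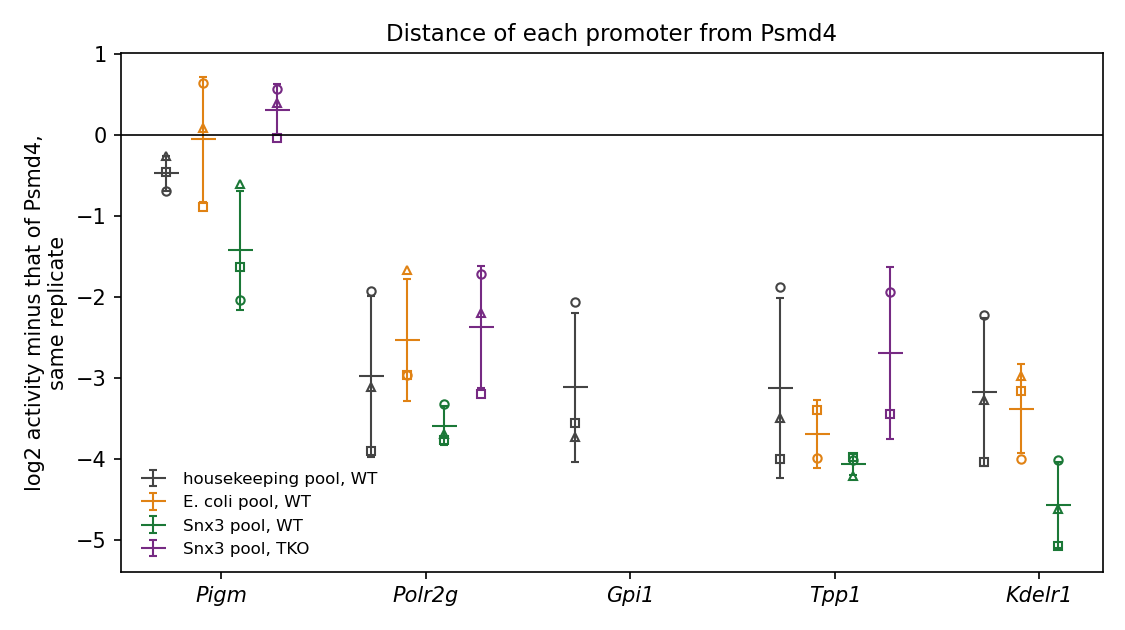
Log2 activity of each promoter minus that of Psmd4 in the same replicate (y axis) for 5 promoters (x axis), coloured by pool and cell line, with circles, squares and triangles for replicates 1, 2 and 3 and bars for mean and SD. Pigm lies nearest to Psmd4 in all pools and sits 0.31 above it in TKO cells, while Polr2g, Tpp1 and Kdelr1 lie below it by 1.66 or more.

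TKO and WT cells were compared in the Snx3 pool to ask whether activity differs where DNA methyltransferases are absent. In TKO cells Psmd4 gave 0.246, 0.875 and 0.793 from 15, 9 and 8 barcodes, Pigm gave 0.364, 0.854 and 1.04 from 28, 21 and 20 barcodes, and Polr2g gave 0.0747, 0.0956 and 0.173 from 65, 47 and 35 barcodes. Tpp1 gave 0.0637 and 0.0806 from 10 and 4 barcodes and had too few barcodes in replicate 3. Pigm (rank 8 of 33) was here placed above Psmd4 (rank 10), and Polr2g and Tpp1 kept ranks 22 and 25.

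Relative to the WT Snx3 construct of the same replicate, Psmd4 was at 0.08, 0.05 and 1.07 in WT cells and at -1.09, -0.18 and -1.26 in TKO cells (log2), so the groups did not overlap. The difference was -1.24 ± 0.65 (SE), with a 95% interval of -2.52 to 0.04. It did not pass (limma, adjusted p = 0.640, two-sided, over 32 constructs), and the exact permutation test gave its smallest possible p of 0.1. Of the 3 members with all 6 values, 1 did not overlap between the cell lines. Of all 28 such constructs 14.3% did not overlap, and 7.14% did so with lower values in TKO cells.

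Pigm was at -1.97, -1.58 and 0.45 in WT cells and at -0.52, -0.22 and -0.86 in TKO cells, a difference of 0.50 ± 0.65 (SE; limma adjusted p = 0.938). Polr2g, at -3.24, -3.72 and -2.62 against -2.81, -3.37 and -3.45, differed by -0.02 ± 0.65 (SE; limma adjusted p = 0.980). Tpp1, at -3.93, -3.92 and -3.14 against -3.04 and -3.62, differed by 0.34 ± 0.72 (SE; limma adjusted p = 0.980). The values of these 3 promoters overlapped between the cell lines. Their 95% intervals reached from -0.78 to 1.78 for Pigm, from -1.30 to 1.26 for Polr2g and from -1.09 to 1.77 for Tpp1. Differences within these bounds were not excluded by these values. For Polr2g and Tpp1 the added 0.05 makes up much of the activity, which shortens any difference. Tpp1 was near the floor in 2 of 3 WT values and 1 of 2 TKO values. Larger differences of the RNA to DNA ratio itself were therefore not excluded for these promoters either. Limma called 0 of the 32 constructs (0%), and 1 construct, Actb, had an unadjusted p under 0.05, with a difference of -1.88 ± 0.65 (SE; adjusted p = 0.139). The median difference was 0.16 over the 4 members tested and -0.04 over all 32 constructs. Limma gave every construct with all values the same SE, because it estimated a common variance, and the noise of the Snx3 construct, measured with 3 to 7 barcodes, is shared by all of these values.

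**Figure D3:**
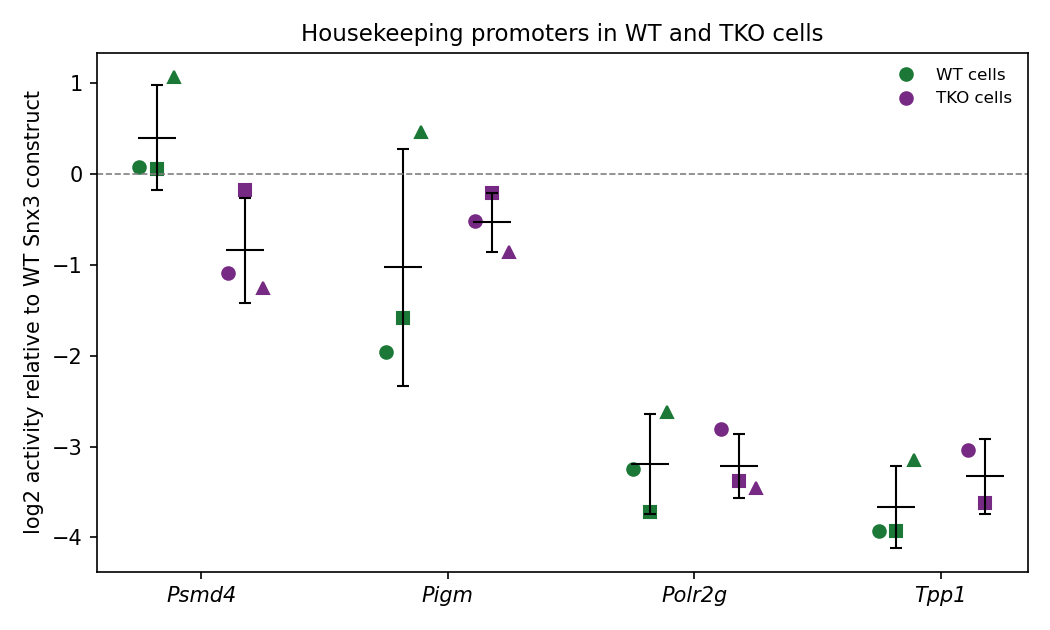
Log2 activity relative to the WT Snx3 construct of the same replicate (y axis) for the 4 promoters measured in both cell lines (x axis), green for WT and purple for TKO cells, with circles, squares and triangles for replicates 1, 2 and 3 and bars for mean and SD. The Psmd4 values of TKO cells lie below all 3 WT values, and those of the other promoters overlap.

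The distance between promoters of the same replicate needs no reference construct, and was compared after these values had been seen. Psmd4 minus Pigm was 2.04, 1.63 and 0.61 in WT cells and -0.57, 0.03 and -0.40 in TKO cells. Psmd4 minus Polr2g was 3.32, 3.77 and 3.69 in WT cells and 1.72, 3.19 and 2.19 in TKO cells. Psmd4 minus Tpp1 was 4.01, 3.97 and 4.21 in WT cells and 1.95 and 3.44 in TKO cells. All 3 distances were smaller in TKO cells without overlap, by 1.74, 1.22 and 1.37, while the 3 distances among Pigm, Polr2g and Tpp1 overlapped. With exact permutation tests over the 6 pairs the p of the former was 0.1, the smallest possible, and the adjusted p 0.2. These 3 distances share the values of Psmd4 and are not independent of one another. Psmd4 had already been seen not to overlap between the cell lines, so they add no separate evidence for a change of Psmd4. The share of non-overlapping pairs among all constructs was not computed, and the pair with Tpp1 has only 3 against 2 values.

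Activity and CpG density put the 6 promoters in different orders. Pigm, with 33 CpGs, was active in all pools, and Tpp1, with 4 CpGs, was weak in all pools. Psmd4 and Polr2g had 15 CpGs each and lay far apart in each WT pool. Psmd4 was higher in 9 of 9 WT replicates, which are not independent across pools, by 1.66 to 3.91 on the log2 scale. The added 0.05 shortens these distances. Gpi1, with the highest OE, was among the weak promoters, with 3 to 7 barcodes per replicate. Spearman's rho between OE and mean log2 activity was 0.43 over the 6 promoters of the housekeeping pool and 0.70 over 5 in the E. coli pool. In the Snx3 pool it was 0.60 over 5 in WT and 0.80 over 4 in TKO cells. Gpi1, with the highest OE, has a value only in the housekeeping pool, and Kdelr1 has none in TKO cells, so the sets of promoters differ. With the number of CpGs in place of OE, rho was 0.61, 0.82, 0.72 and 0.95 in the same order. With G+C content it was 0.20, 0.50, 0.20 and 1.00, so in TKO cells G+C ordered the 4 promoters at least as well. These values describe few promoters of 1 library and carry no test.

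**Figure D4:**
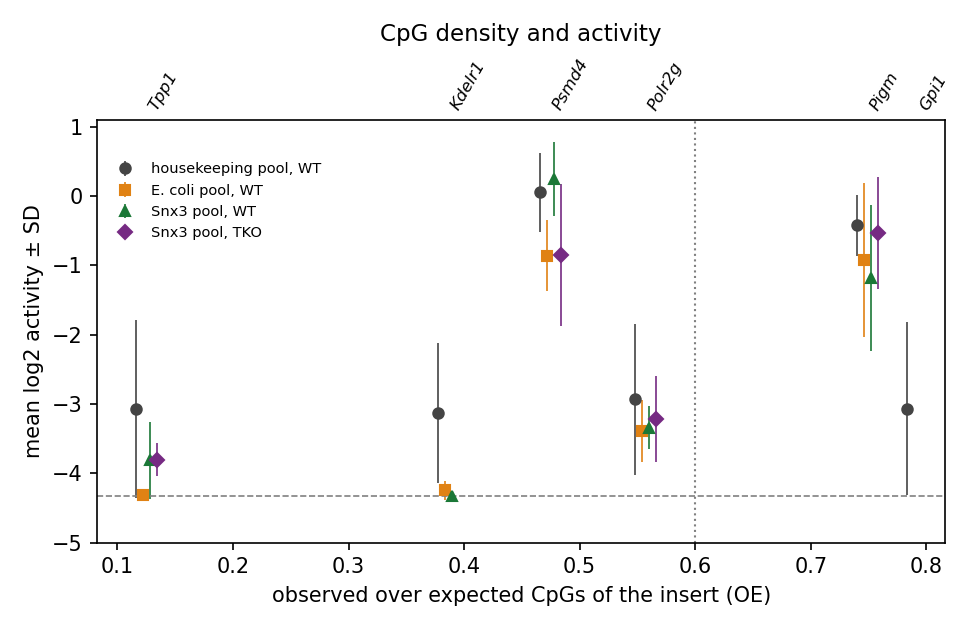
Mean log2 activity with SD (y axis) against the observed over expected CpG ratio of the insert (x axis), 1 symbol for each promoter, pool and cell line, with a dotted line at 0.6 and a dashed line at the lowest measurable value. Psmd4, at an OE of 0.474, has the highest mean in the housekeeping pool, while Gpi1, at 0.792, lies among the weak promoters.

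For each promoter the construct of the Snx3 pool with the most similar activity was sought among 26 constructs, by the mean absolute difference of log2 activity over both cell lines. Psmd4 was nearest to the native Snx3 promoter, which has 46 CpGs (0.62 over 6 replicates), and Pigm to CMV, with 38 CpGs (0.54 over 6). Polr2g was nearest to the Snx3 mutant listed as 10011, which has 18 CpGs and an OE of 0.491 (0.28 over 6), and Tpp1 to the mutant listed as 11101, with 11 CpGs and an OE of 0.318 (0.32 over 5). Gpi1 and Kdelr1 had too few values for this.

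**Figure D5:**
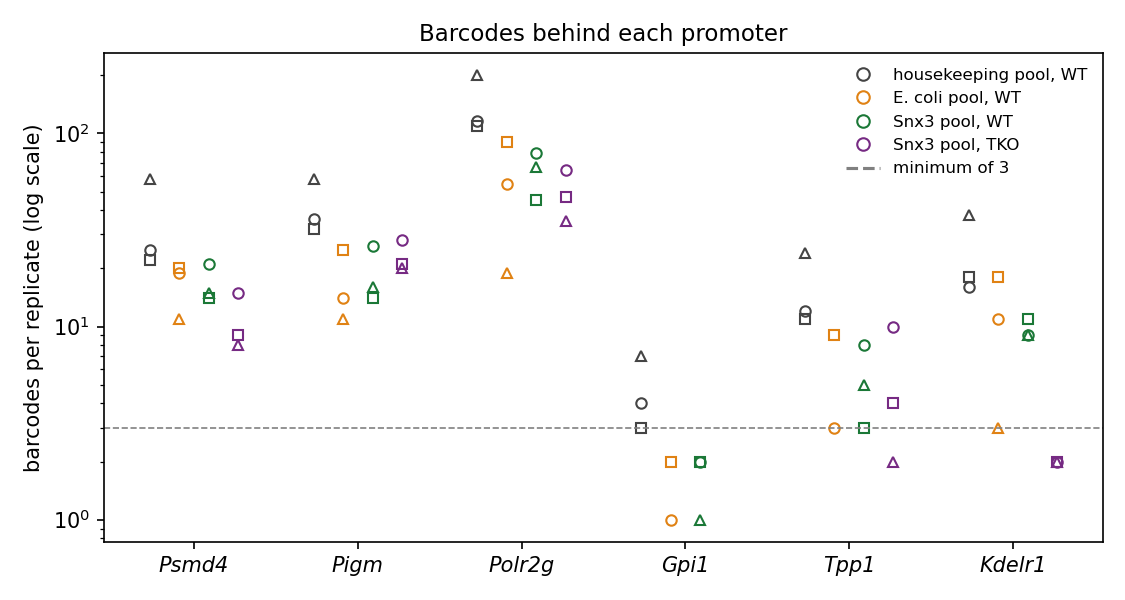
Number of barcodes per replicate (y axis, log scale) for each promoter (x axis), coloured by pool and cell line, with circles, squares and triangles for replicates 1, 2 and 3 and a dashed line at the minimum of 3. Polr2g has the most barcodes in each pool, and Gpi1 falls below the minimum outside the housekeeping pool.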

How the data were processed

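RNA and genomic DNA barcodes of 3 promoter pools in WT mouse ESCs, and of 1 of them in TKO cells, were measured in 3 replicates each and grouped as the labels give them, among 186 samples listed. The authors assigned barcodes with Bowtie on mm9 or by string distance, scaled RNA and DNA reads to the smaller total, kept barcodes with more than 20 DNA reads, and deposited activity as a ratio (RNA over DNA plus 0.05, geometric mean over barcodes). Activity relative to the WT Snx3 construct and the CpG ratio (OE) were deposited as ratios, and the authors gave G+C as a percent of bases. Bowtie's version is not given in the sources used here.

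Ratios were converted to log2. Replicates with fewer than 3 barcodes were left out and promoters needed 2 replicates. TKO and WT cells were compared with limma 3.58.1 (R 4.3.3) over all constructs, adjusted by Benjamini-Hochberg at 0.05. Single values used exact permutation tests (scipy 1.17.1 and numpy 2.4.6 under Python 3.11.15). Tables were read with pandas 2.3.3 and plotted with matplotlib 3.10.9. Alternatives were the barcode minimum, the averaging, the reference, weights, a replicate block and each replicate left out. The promoters named are the 6 members, the other 4 promoters of the housekeeping pool where they take a place in the order, and the nearest construct by activity. The members and lists were chosen with earlier results of these data known. RT-qPCR and methylation columns of the Snx3 pool have no value for the 6 promoters and were not used here.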

Additional observations from a re-analysis of the deposited data

How the results depend on the processing

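Lowering the barcode minimum to 1 changed no value, since activities are given only from 3 barcodes. Limma called 0 constructs under every alternative, with 1 to 6 constructs at an unadjusted p under 0.05. With a barcode minimum of 10, Psmd4 and Tpp1 had too few replicates for an estimate. Over the other alternatives the adjusted p of Psmd4 (limma) ranged from 0.160 to 0.771. Its difference between TKO and WT cells stayed negative there, from -1.57 to -0.91 without single replicates. That of Polr2g changed sign, at 0.12 as deposited, 0.011 centred on the median construct, 0.24 centred on the promoters measured in all 6 replicates, 1.22 relative to Psmd4 (added after seeing the data) and -0.28 to 0.27 without single replicates. Pigm ranged from 0.03 to 1.24 and Tpp1 from 0.04 to 0.63 without single replicates, and Tpp1 was at -0.32 relative to Pigm. None of these 3 passed under any alternative, and where Tpp1 kept 1 TKO replicate that value was assumed to vary like the other constructs.

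Whether same-numbered replicates of WT and TKO cells belong together was not settled. Their deviations correlated at 0.296, 0.394 and -0.162 over 28 constructs, against -0.46 to 0.251 for replicates of different number. With a replicate block Tpp1 moved to 0.60 and Psmd4 stayed at -1.24 (adjusted p = 0.746), and no call changed.

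With a barcode minimum of 10 the span from the highest to the lowest member was 3.59 in WT and 2.68 in TKO cells of the Snx3 pool, as fewer members remain, and without single replicates it ran from 2.44 to 2.96 in TKO cells. From mean linear activities Gpi1 minus Tpp1 in the housekeeping pool became -0.055 and Psmd4 minus Pigm in the E. coli pool -0.18. Without single replicates Gpi1 minus Tpp1 (-0.21 to 0.12), Polr2g minus Gpi1 (-0.10 to 0.38) and Tpp1 minus Kdelr1 (-0.091 to 0.19) in the housekeeping pool and Psmd4 minus Pigm in the E. coli pool (-0.36 to 0.41) changed sign. Of 110 ranks recomputed, 47 moved. Gpi1 had at most 7 barcodes in a replicate, and Kdelr1 and Tpp1 were near the floor in each value of the E. coli pool.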

Other observations

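The number of barcodes did not order the spread between replicates. Over 20 combinations of promoter, pool and cell line Spearman's rho between summed barcodes and SD was 0.15, given as a description because the combinations share replicates. Polr2g, with 109 to 200 barcodes, had an SD of 1.09 in the housekeeping pool, where replicate 1 lay above the others, and an SD of 0.31 from 45 to 79 barcodes in WT cells of the Snx3 pool. The smallest SDs belonged to promoters at the floor, where values cannot spread.

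The shares of Polr2g and Pigm among the barcodes of all 6 promoters differed little between the WT pools. Polr2g took 53.9%, 52.7% and 55.04% of them in the housekeeping, E. coli and Snx3 pools, and Pigm took 15.97%, 16.1% and 16.1%. Tpp1 took 5.96%, 3.86% and 4.61%, and Gpi1 1.77%, 0.965% and 1.44%. In the separate insertion of TKO cells Polr2g took 54.4%, Pigm 25.6% and Kdelr1 2.22%, against 8.36% for Kdelr1 in WT cells of the Snx3 pool.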
